A study of Rattus rattus with 8 samples.

Results

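The subject is a set of 10 genes that release calcium from the sarcoplasmic reticulum of heart muscle, pump it back or carry it out of the cell: Ryr2, Casq2, Trdn, Hrc, Asph, Jph2, Atp2a2, Pln, Sln and Slc8a1. They were chosen by name, with earlier results of these data known, and each was found once among the 30957 genes of the table. RNA sequencing compared 4 libraries of tetraploid (4n) with 4 libraries of diploid (2n) cells, sorted by DNA content from neonatal rat cardiomyocyte cultures of independent experiments. Both fractions came from SD rats aged 1 to 3 days, were plated for 24 h with 0.2 mM AraC, a blocker of DNA synthesis, then starved of serum and kept at 1% oxygen for 48 h, so that no library stands for normal oxygen. The gate read Hoechst, a DNA dye used at 2 µg/mL. It does not tell a tetraploid nucleus from a binucleated cell, a cell in G2 or M phase, or a pair of diploid cells stuck together.

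In heart muscle, calcium entering through surface channels opens the ryanodine receptor of the sarcoplasmic reticulum, and the calcium released there starts contraction. Relaxation follows when the SERCA pump returns calcium to the reticulum and the sodium-calcium exchanger moves the rest out of the cell. Small membrane proteins restrain the pump, and a complex of lumenal and junctional proteins holds calcium next to the release channel.

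The labels call all 8 samples cardiomyocytes, and the markers only partly bear this out. The 11 cardiomyocyte markers were all detected. Their summed level lay between 4112 and 29722 CPM in 4n libraries and between 490 and 962 CPM in 2n libraries, where CPM is the count scaled to the size of the library. The 7 fibroblast markers summed to between 29402 and 51432 CPM in 4n and between 44140 and 57515 CPM in 2n libraries, more than the cardiomyocyte markers in all libraries but 4n replicate 3. Most of the fibroblast sum was collagen, with Col1a1 at a mean of 22931 CPM in 4n and 28183 CPM in 2n. Col3a1 averaged 13325 CPM in 4n and 18732.5 CPM in 2n, so the sums do not give shares of cells. The 6 smooth muscle and pericyte markers summed to between 5330 and 10016 CPM in 4n and between 5753 and 9536 CPM in 2n. Endothelial and macrophage markers were low, at no more than 439 and 12.1 CPM in 4n and no more than 175 and 7.29 CPM in 2n. The endothelial sum hides opposite directions. Cdh5, Kdr and Vwf averaged 57.8, 29.8 and 21.5 CPM in 4n, against 6.39, 2.61 and 3.04 CPM in 2n. Tek and Flt1 averaged 19.7 and 79.1 CPM in 4n, against 22.9 and 90.9 CPM in 2n. None of these was called different (edgeR adjusted p at least 0.0600). Depth lay between 14783521 and 21033772 counts per library, and mitochondrial genes took 3.71% of the counts of 4n replicate 1, between 24.1% and 25.9% in the other 4n libraries and between 2.87% and 3.82% in 2n libraries. In bulk samples such as these, fewer cells of a type and less RNA per cell cannot be told apart.

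Ryr2, Casq2, Trdn and Hrc of the release complex and the pump inhibitor phospholamban stood far higher in 4n than in 2n cells. The pump, the exchanger and junctophilin had smaller fold changes, and Asph had a negative fold change. Of the 10 genes, 9 had enough counts to be tested and Sln did not. Ryr2, Casq2, Trdn, Hrc and Pln rose, that is 5 of the 9 (quasi-likelihood test of edgeR over 12983 genes, threshold 0.05 after Benjamini-Hochberg adjustment), with log2 fold changes from 3.77 to 4.32. Fold changes below are edgeR's log2 estimates ± SE, adjusted p-values are edgeR's unless another tool is named, and levels are means ± SD of 4 libraries per fraction. Among all genes tested, 2.67% were called higher and 0.0077% lower. The median log2 fold change of the 9 genes was 3.77, against -0.01 over all genes tested. All 4n libraries lay above all 2n libraries in CPM for 7 of the 9, against 7.68% of the genes tested, and all below for 0 of the 9, against 3.69%. The main fit does not use the pairs of same-numbered libraries. A fit blocked by replicate number called 6 of the 9, where it called 4.27% of all genes higher. These were Jph2 and the same 5. In it Ryr2, Pln and Casq2 had edgeR adjusted p of 0.0491, 0.0448 and 0.0403, near the threshold. Trdn and Hrc had 0.0253 and 0.0186. DESeq2, which could also test Sln, called 8 of the 10 higher, where it called 6.27% of all genes higher. The calls of the main fit depended on which library was left out. Of the 9, 7 were called without 4n replicate 1 and 5 without 4n replicate 2 or 3. With 4n replicate 4 or any single 2n library left out, 0 were called. In those last 5 fits no gene of the whole table passed (at an unadjusted p under 0.05, from 1304 to 1478 were higher), while the 5 genes kept log2 fold changes from 3.61 to 4.59 at edgeR adjusted p from 0.0629 to 0.129.

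**Figure D1:**
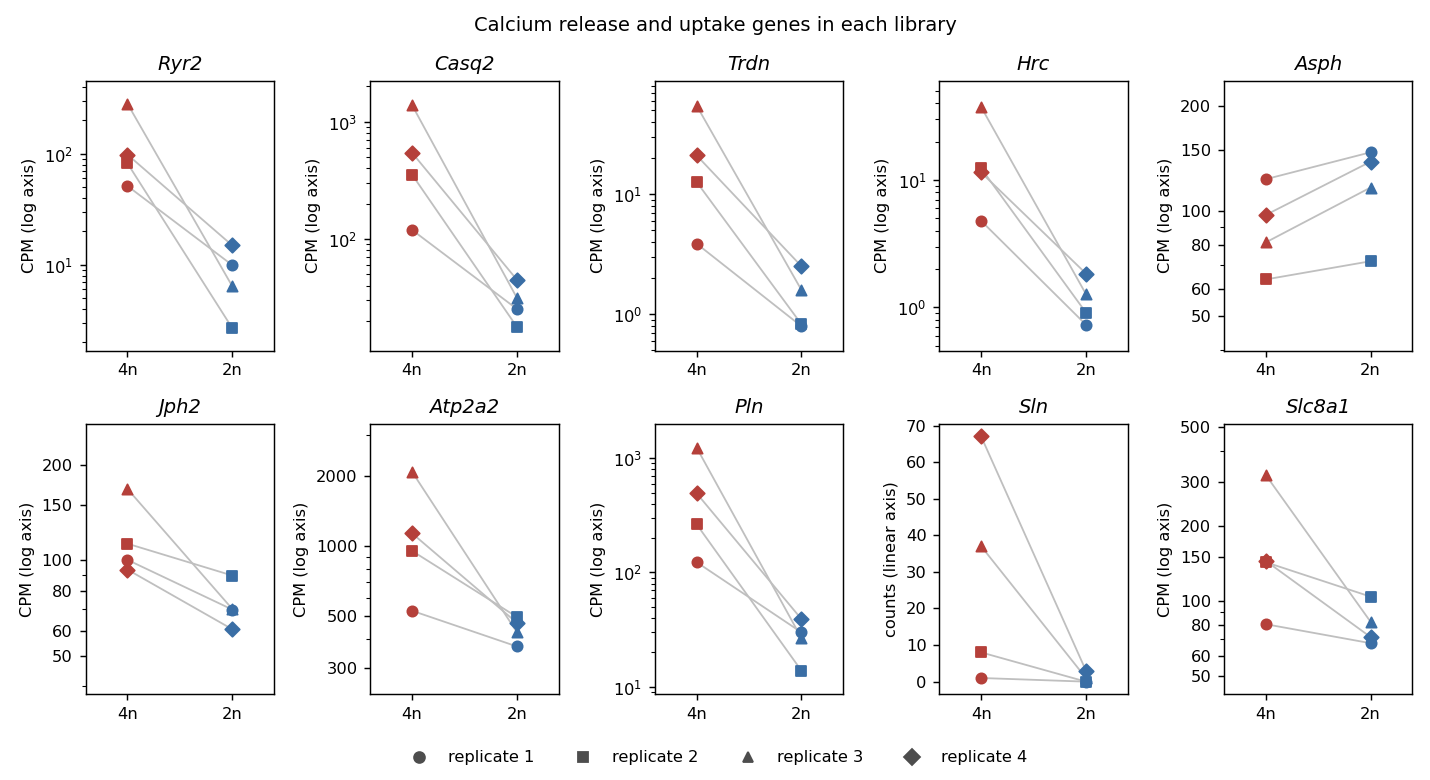
Level of each gene in each library, in CPM on a log axis (Sln in counts on a linear axis), with 4n libraries in red on the left, 2n libraries in blue on the right and grey lines joining libraries of the same replicate number. The groups are wide apart for Ryr2, Casq2, Trdn, Hrc and Pln, while Asph slopes the other way in all 4 pairs, from 63.8 to 124 CPM in 4n against 71.9 to 148 CPM in 2n.

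Ryr2, the cardiac ryanodine receptor and the release channel itself, lies on chromosome 17 from 65535403 to 65955606 in Rnor_6.0, the build of all positions given here. It had 51.4, 82.3, 283 and 98.5 CPM in 4n replicates 1 to 4, against 9.94, 2.69, 6.42 and 15.0 CPM in 2n replicates 1 to 4. The lowest 4n library was 3.43 times the highest 2n library. The means were 129 ± 105 CPM in 4n and 8.50 ± 5.22 CPM in 2n, and the log2 fold change was 3.92 ± 0.67 (edgeR adjusted p = 0.0258). Replicate 3 was highest within 4n but below the mean within 2n.

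Casq2, cardiac calsequestrin, binds calcium inside the reticulum and is encoded on chromosome 2 from 204512302 to 204568656. Its level was 119.5, 354, 1384 and 543 CPM in 4n replicates 1 to 4, against 25.4, 17.9, 31.6 and 45.0 CPM in 2n replicates 1 to 4. The lowest 4n library was 2.65 times the highest 2n library, and the 4n libraries spread over an 11.6-fold range, against 2.52-fold in 2n. The log2 fold change of 4.32 ± 0.70 (edgeR adjusted p = 0.0252) was the largest of the 9 genes tested.

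Trdn, triadin, anchors calsequestrin to the ryanodine receptor and lies on chromosome 1 from 25403391 to 25839345. It was scarcer, with 72, 170, 765 and 288 counts in 4n replicates 1 to 4, against 13, 19, 30 and 53 counts in 2n replicates 1 to 4. In CPM this was 23.1 ± 22.2 in 4n and 1.43 ± 0.808 in 2n, a log2 fold change of 4.00 ± 0.78 (edgeR adjusted p = 0.0345). Its groups did not overlap, yet its call was lost under 10 of 20 alternative settings, with an edgeR adjusted p of 0.0563 when genes with few counts were kept in the test. The other genes that rose were little firmer. Ryr2, Casq2 and Pln each lost their call under 9 of the 20 settings and Hrc under 8.

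Hrc, the histidine-rich calcium binding protein of the reticulum lumen, is on chromosome 1 from 101324652 to 101328435. It had 89, 166, 523 and 157 counts in 4n replicates 1 to 4, against 12, 21, 24 and 39 counts in 2n replicates 1 to 4. Every 4n library was above every 2n library, at 16.5 ± 14.3 CPM in 4n and 1.19 ± 0.491 CPM in 2n (fold change 3.77 ± 0.63, edgeR adjusted p = 0.0252). Its locus overlaps that of its neighbour Ppfia3, which held 117 counts over all libraries against 1031 for Hrc, and with no strand setting given, either locus may hold reads of the other.

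Asph, on chromosome 5 from 22577675 to 22799349, encodes both junctin, the partner of triadin in the release complex, and aspartate beta-hydroxylase, an enzyme of the endoplasmic reticulum in many tissues. Gene counts do not separate these products. Its level was 124, 63.8, 81.4 and 97.6 CPM in 4n replicates 1 to 4, against 148, 71.9, 117 and 139 CPM in 2n replicates 1 to 4. The groups overlapped, although the 4n library was the lower of its pair in 4 of 4 pairs. The log2 fold change of -0.37 ± 0.26 did not pass (edgeR adjusted p = 0.493, and 0.0667 in a fit blocked by replicate number). The libraries of replicate 2 were the lowest of both groups.

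Jph2, junctophilin 2, ties the reticulum to the surface membrane where release takes place and lies on chromosome 3 from 159712325 to 159775643. It was abundant in both fractions, with 100.4, 113, 168 and 93.5 CPM in 4n replicates 1 to 4, against 69.9, 89.6, 70.3 and 60.6 CPM in 2n replicates 1 to 4. The groups did not overlap, but the lowest 4n and the highest 2n library were close. The means were 119 ± 33.8 CPM in 4n and 72.6 ± 12.2 CPM in 2n. The log2 fold change was 0.71 ± 0.20 and did not pass (edgeR adjusted p = 0.113). In the fit blocked by replicate number it did, at a log2 fold change of 0.68 (edgeR adjusted p = 0.0491), and that fit called 6 of the 9 genes and 4.27% of all genes higher and 0.608% lower.

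On the uptake side, Atp2a2 encodes SERCA2, the pump of heart muscle, which other cell types also use in a second splice form, and lies on chromosome 12 from 39553903 to 39603326. It had 528, 955, 2091 and 1137 CPM in 4n replicates 1 to 4, against 371, 497, 427 and 469 CPM in 2n replicates 1 to 4. All 4n libraries were above all 2n libraries, with replicate 1 only just so. The means were 1178 ± 659.9 CPM in 4n and 441 ± 54.7 CPM in 2n, so the 2n libraries were much the tighter group. The log2 fold change of 1.42 ± 0.36 did not pass (edgeR adjusted p = 0.0765). It passed without 4n replicate 1, at 1.66 (edgeR adjusted p = 0.00836).

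Pln, phospholamban, the small membrane protein that slows SERCA2 until it is phosphorylated, lies on chromosome 20 from 34633157 to 34642904. Its level was 123, 264, 1239 and 493 CPM in 4n replicates 1 to 4, against 29.9, 13.8, 26.7 and 39.1 CPM in 2n replicates 1 to 4. The groups were far apart, and replicates 1 to 4 stood in the same order within 4n as they did for Casq2. The means were 529.8 ± 497 CPM in 4n and 27.4 ± 10.5 CPM in 2n, with a log2 fold change of 4.27 ± 0.70 (edgeR adjusted p = 0.0252). The Pln locus lies inside that of Cep85l, which held 1055 counts over all libraries against 32048 for Pln, and the same limit applies.

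Sln, sarcolipin, is a second small inhibitor of the pump, found in the heart mainly in the atria, and lies on chromosome 8 from 58431407 to 58435654. It had 1, 8, 37 and 67 counts in 4n replicates 1 to 4, against 0, 0, 1 and 3 counts in 2n replicates 1 to 4. With so few counts it was left out of the test by the filter, and no fold is given. Its highest library was 4n replicate 4, not 4n replicate 3 as for the 5 genes that rose. Among the 11 cardiomyocyte markers only Myl7, an atrial myosin light chain, also had its highest level in 4n replicate 4. Its level was 4.35, 8.18, 18.1 and 26.2 CPM in 4n replicates 1 to 4, against 0.427, 0.607, 0.424 and 1.23 CPM in 2n replicates 1 to 4. The rest of the 11 were highest in 4n replicate 3. Myl4 was among these, at 9.62, 22.1, 78.1 and 34.6 CPM in 4n replicates 1 to 4. In the fit that kept all genes with any count, Sln had an edgeR adjusted p of 0.0914, and DESeq2 gave an adjusted p of 0.00130.

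The ratio of inhibitor to pump transcripts can be read within a library, where the scaling cancels but the mix of cells does not. On FPKM values, the authors' counts divided by gene length and library total, the Pln to Atp2a2 ratio was 0.734, 0.871, 1.87 and 1.37 in 4n replicates 1 to 4, against 0.254, 0.0877, 0.197 and 0.263 in 2n replicates 1 to 4. Each 4n library had the higher ratio. The log2 ratio averaged 0.18 ± 0.61 in 4n and -2.44 ± 0.74 in 2n (SD, n = 4 libraries each), a difference of 2.62 (exact two-sided permutation test, p = 0.0286, the smallest this design allows). With pairs kept together, an exact test by sign flips gave p = 0.125, the smallest that 4 pairs allow. Other cell types also use Atp2a2, and the part of cell mix in this ratio was not tested. Relative to the summed cardiomyocyte markers, the mean log2 level in 4n minus that in 2n was 0.13 for Pln and -2.49 for Atp2a2. The ratios of Sln to Atp2a2 and to Pln were not tested, since Sln had fewer than 3 counts in 3 of the 2n libraries. Where Sln had at least 3 counts in 4n, in replicates 2, 3 and 4, the Sln to Atp2a2 ratio was 0.0148, 0.0302 and 0.103, so sarcolipin transcripts were a small fraction of those of the pump.

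Ratios to the release channel are described without a test. The Casq2 to Ryr2 ratio of FPKM was 13.6, 25.2, 28.6 and 32.3 in 4n replicates 1 to 4, against 15.0, 38.9, 28.9 and 17.7 in 2n replicates 1 to 4. Trdn to Ryr2 lay between 0.228 and 0.646 in 4n and between 0.241 and 0.927 in 2n, and Hrc to Ryr2 between 0.542 and 0.873 in 4n and between 0.429 and 1.97 in 2n. Each of these 3 ranges overlapped between the fractions, and replicate 1 had the lowest of each ratio in both. Jph2 to Ryr2 did not overlap, at 13.6, 9.55, 4.13 and 6.61 in 4n replicates 1 to 4, against 49.0, 232, 76.3 and 28.2 in 2n replicates 1 to 4, so that every 4n library was below every 2n library.

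**Figure D2:**
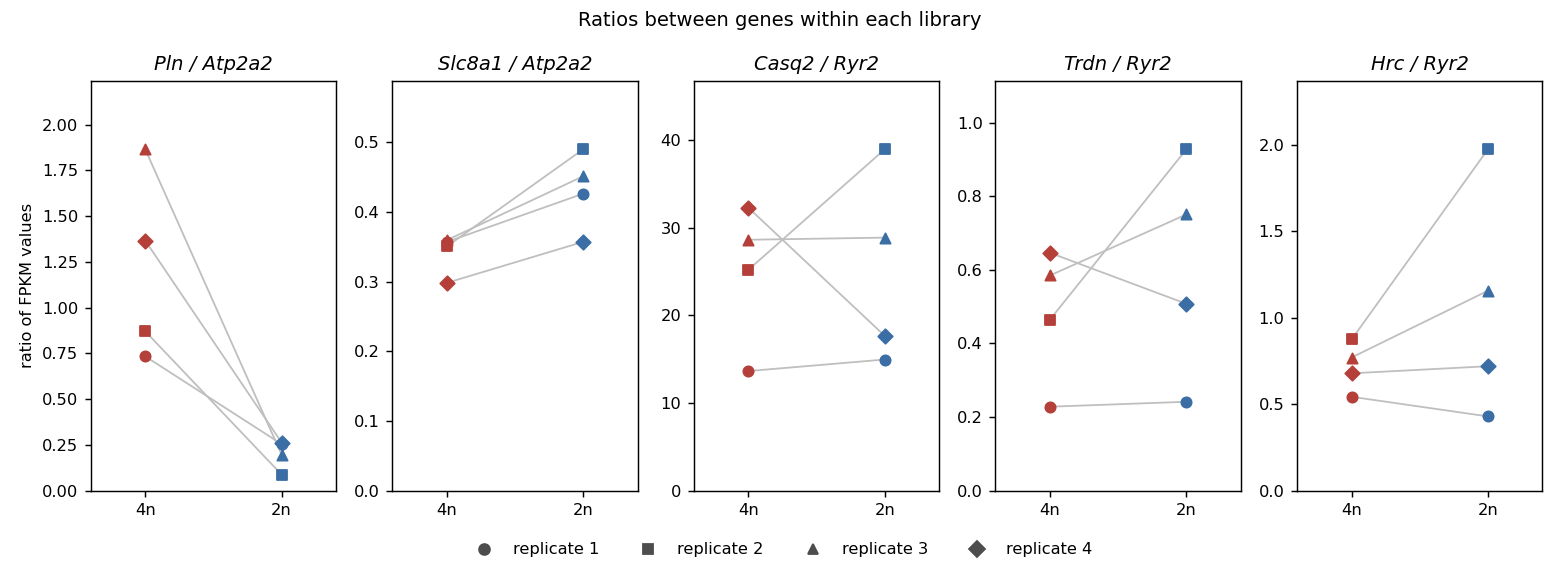
Ratio of FPKM values between pairs of genes in each library, on linear axes from 0, with 4n libraries in red on the left, 2n libraries in blue on the right and grey lines joining replicates of the same number. The Pln to Atp2a2 ratio separates the fractions, from 0.734 to 1.87 in 4n against 0.0877 to 0.263 in 2n, while the ratios of Casq2, Trdn and Hrc to Ryr2 overlap.

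Slc8a1, the sodium-calcium exchanger of the surface membrane and the main route of calcium out of heart muscle cells, lies on chromosome 6 from 4258991 to 4520604. It had 80.6, 143, 321 and 145 CPM in 4n replicates 1 to 4, against 67.6, 104, 82.5 and 71.6 CPM in 2n replicates 1 to 4. The 4n library was higher in each pair, but 4n replicate 1 lay within the 2n range. The means were 173 ± 104 CPM in 4n and 81.5 ± 16.4 CPM in 2n. The log2 fold change of 1.08 ± 0.37 did not pass (edgeR adjusted p = 0.178). Without 4n replicate 1 it passed, at 1.32 (edgeR adjusted p = 0.0361), and without 4n replicate 3 it was 0.59 (edgeR adjusted p = 0.350). The ratio of Slc8a1 to Atp2a2 was between 0.298 and 0.360 in 4n and between 0.357 and 0.490 in 2n, a narrow span over all 8 libraries, with the 4n library lower in 4 of 4 pairs.

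The size of the difference varied between the pairs of same-numbered libraries. For the 5 genes that rose, the log2 difference was from 2.04 to 2.71 in the pair of replicate 1 and from 4.88 to 5.53 in the pair of replicate 3. Replicate 1 thus gave the smallest difference for Ryr2, Casq2, Pln and Trdn, and for Hrc replicate 4 was slightly smaller, at 2.64 against 2.71. Atp2a2, Slc8a1 and Jph2 also differed most in the pair of replicate 3, by 2.29, 1.96 and 1.26. Without 4n replicate 3 the log2 fold changes of the 5 genes were from 2.98 to 3.50 and those of Atp2a2 and Jph2 were 0.98 and 0.49.

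**Figure D3:**
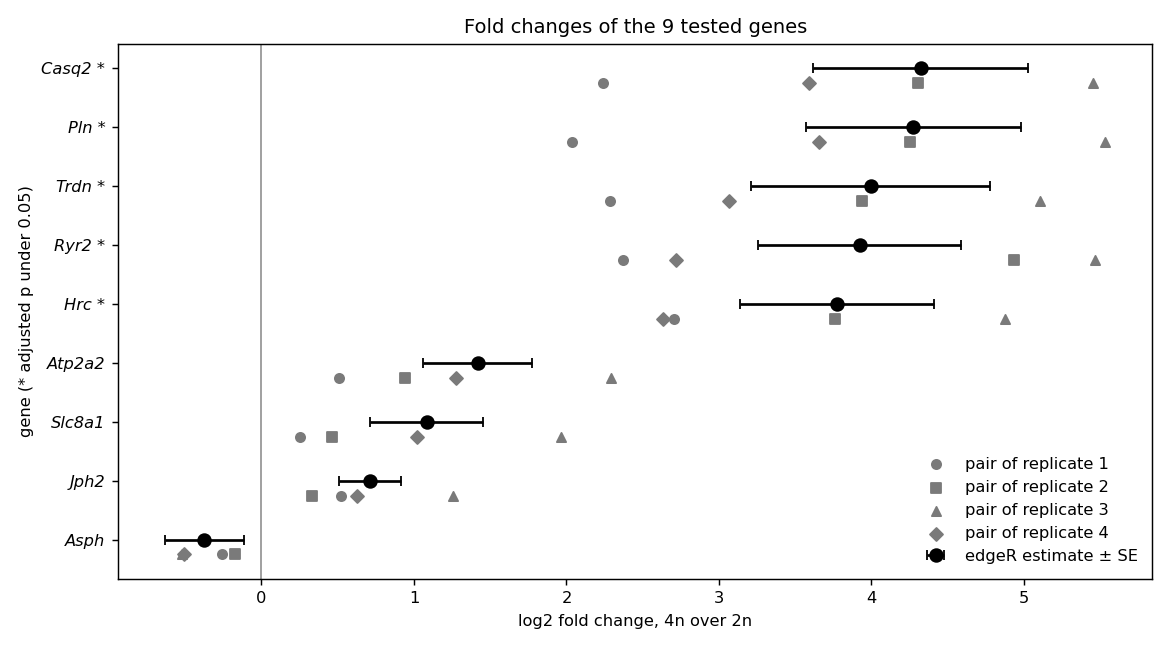
Log2 fold change of 4n over 2n for the 9 genes tested, as the edgeR estimate with its standard error (black) and as the difference within each pair of libraries (grey symbols), with genes past the threshold starred. Casq2, Pln, Trdn, Ryr2 and Hrc lie between 3.77 and 4.32, Atp2a2, Slc8a1 and Jph2 between 0.71 and 1.42, and Asph at -0.37.

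Set against the cardiomyocyte markers, the 9 genes fell into separate sets. The summed level of the 11 markers was 4112, 7794, 29722 and 10660 CPM in 4n replicates 1 to 4, against 962, 490, 734 and 920 CPM in 2n replicates 1 to 4, and each of the 11 was called higher in 4n. Relative to this sum, Pln lay between -5.06 and -4.43 on the log2 scale in 4n and between -5.14 and -4.55 in 2n. Casq2 likewise lay between -5.10 and -4.30 in 4n and between -5.24 and -4.35 in 2n. Ryr2, Trdn and Hrc overlapped between the fractions too, and the means of these 5 relative levels differed by between -0.25 and 0.16 (4n minus 2n). On average, these 5 genes and the markers thus differed between the fractions by about the same factor, and the part of cell mix in their difference was not tested.

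The other genes tested stood lower relative to the markers in all 4n than in all 2n libraries. Relative to the marker sum, Atp2a2 lay between -3.83 and -2.96 on the log2 scale in 4n and between -1.37 and 0.02 in 2n, so that in 2n replicate 2 it alone matched all 11 markers together. Slc8a1 and Jph2 were lower by 2.82 and 3.06 in 4n than in 2n on this relative scale, without overlap. Asph was lower by 4.11, at between -8.51 and -5.06 in 4n and between -2.77 and -2.65 in 2n. The 2n values of Asph spread over 0.12 only. Of the 4n mean in CPM, the 2n mean was 37.4% for Atp2a2, 47.2% for Slc8a1 and 61.2% for Jph2, but 6.59% for Ryr2, 6.19% for Trdn, 7.21% for Hrc and 5.17% for Pln.

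**Figure D4:**
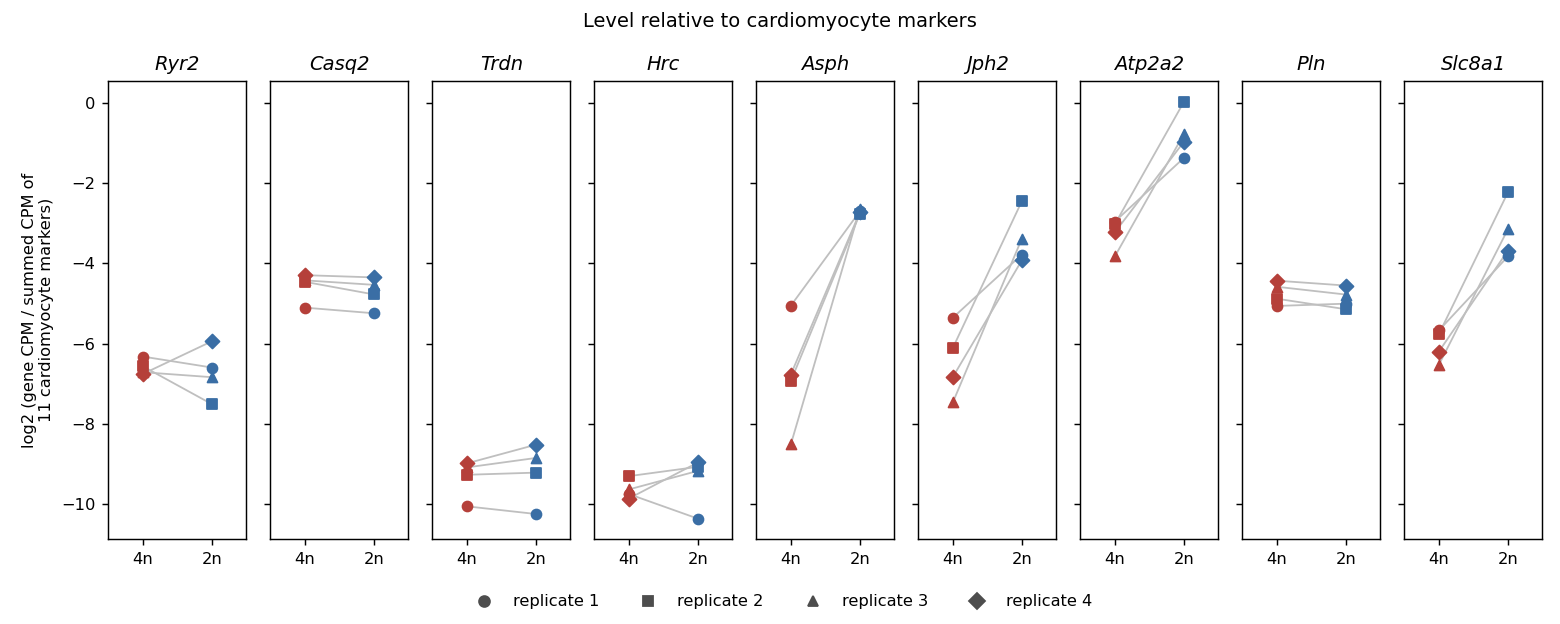
Log2 of each gene's CPM over the summed CPM of 11 cardiomyocyte markers in each library, with 4n libraries in red on the left, 2n libraries in blue on the right and grey lines joining replicates of the same number. Ryr2, Casq2, Trdn, Hrc and Pln sit on average at about the same height in both fractions, whereas Asph, Jph2, Atp2a2 and Slc8a1 sit higher in all 2n than in all 4n libraries.

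The order of the transcripts by mean level, compared per length in FPKM, differed between the fractions. In 4n, Casq2, Pln and Atp2a2 led with 205 ± 175, 203 ± 177 and 147 ± 69.4 FPKM, and their ranges overlapped. Jph2 and Slc8a1 followed with 50.8 ± 11.1 and 50.2 ± 25.6 FPKM, in ranges that overlapped those of Casq2 and Pln. The range of Slc8a1, up to 87.7 FPKM, also overlapped that of Atp2a2, from 82.8 FPKM. Then came Ryr2, Sln, Hrc, Asph and Trdn with means from 4.05 to 7.61 FPKM and overlapping ranges. The order was not the same in each 4n library. In 4n replicate 1 Atp2a2 led with 82.8 FPKM, ahead of Pln, Casq2 and Jph2 with 60.8, 52.6 and 52.5 FPKM. In 2n, Atp2a2 stood alone with 67.5 ± 8.10 FPKM, ahead of Jph2 with 37.1 ± 6.51 and Slc8a1 with 29.2 ± 5.92 FPKM, which overlapped each other. Pln, Casq2 and Asph came next with 13.2 ± 4.98, 12.8 ± 4.79 and 7.92 ± 2.28 FPKM, and Ryr2, Hrc, Trdn and Sln had means under 1 FPKM. The length behind the authors' FPKM was 14817 bases for Ryr2 and 16304 bases for Asph, against 298 bases for Sln, so the rank of Asph and Sln depends on the gene model.

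Other genes of calcium handling were followed in lists of 69 names, of which 63 were in the table and 53 could be tested. Of 36 tested genes of release, uptake and the junction, 8 rose and 0 fell, with a median log2 fold change of 0.54, beside 2.67% of all genes called higher and a median of -0.01. The 8 were Srl, Casq1, Ppp1r3a, Cacnb2, Cmya5, Ryr3, Tmem38a and Speg. None of the 8 would pass without 4n replicate 4 or any 2n library, since 0 genes then passed. In the blocked fit, 9 of the 36 were called higher, beside 4.27% of all genes. DESeq2 called 13 of them higher, beside 6.27% of all genes, and limma-voom 0, and at an unadjusted p under 0.05 edgeR had 18 higher and 0 lower, beside 12.6% of all genes higher and 4.82% lower.

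Srl, sarcalumenin, a calcium-binding protein of the reticulum lumen, averaged 217 ± 223.5 CPM in 4n and 9.20 ± 3.64 CPM in 2n (fold change 4.56 ± 0.72, edgeR adjusted p = 0.0252). Casq1, the skeletal muscle form of calsequestrin, averaged 135 ± 125 CPM in 4n and 8.07 ± 2.99 CPM in 2n (fold change 4.07 ± 0.65, edgeR adjusted p = 0.0252). The 5 skeletal muscle markers in the table summed to between 13.8 and 111 CPM in 4n and between 0.781 and 3.29 CPM in 2n, nearly all of it Ckm, the muscle creatine kinase, which heart muscle also uses. Ckm was the only one tested and was called higher, at a mean of 43.6 CPM in 4n and 1.98 CPM in 2n (edgeR adjusted p = 0.0252). Of the others, Actn3 had at most 0.365 CPM in 4n and 0.0946 CPM in 2n, and the transcription factors Myod1, Myog and Myf5 had 0 CPM in 4n and at most 0.142 CPM in 2n. The part of skeletal muscle cells in the Casq1 difference was not tested. Ryr3, a ryanodine receptor of low level in many tissues, averaged 3.60 ± 2.80 CPM in 4n and 0.348 ± 0.181 CPM in 2n (fold change 3.33 ± 0.62, edgeR adjusted p = 0.0297).

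Cacnb2, an accessory subunit of the surface calcium channel, and Cmya5, a large protein at the junction of the reticulum and the surface membrane, rose by 3.65 ± 0.68 and 3.45 ± 0.58 on the log2 scale (SE). Tmem38a, a potassium channel of the reticulum, Speg, a muscle kinase, and Ppp1r3a, a targeting subunit of protein phosphatase 1, rose by 2.58 ± 0.54, 2.07 ± 0.41 and 3.85 ± 0.81. The edgeR adjusted p of these 5 lay between 0.0252 and 0.0430. With the block Tmem38a, Speg and Ppp1r3a no longer passed, at edgeR adjusted p of 0.0597, 0.0732 and 0.0636.

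Of the genes that did not pass, Akap6, Fkbp1a, Prkaca and Ppp1r1a had the smallest p. Akap6, an anchor of protein kinase A at the release channel, averaged 49.5 ± 38.4 CPM in 4n and 11.5 ± 2.67 CPM in 2n (fold change 2.10 ± 0.48, edgeR adjusted p = 0.0570). Fkbp1a, an immunophilin that binds ryanodine receptors, had 399.7 ± 74.5 CPM in 4n and 255 ± 20.5 CPM in 2n, without overlap (fold change 0.65 ± 0.15, edgeR adjusted p = 0.0613). It passed with the block, at an edgeR adjusted p of 0.0381, as did Ppp1r1a, an inhibitor of protein phosphatase 1, at 0.0436. Further genes of the list, not among those named here, also passed with the block but not in the main fit. Prkaca, the catalytic subunit of protein kinase A, had a log2 fold change of 1.10 ± 0.28 (edgeR adjusted p = 0.0794).

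Genes that handle calcium in any cell type were followed in separate lists. Among 11 genes of the general calcium store, 0 passed in either direction and the median log2 fold change was -0.17, and among 6 of calcium extrusion and mitochondrial exchange 0 passed and the median was -0.11. Beside 2.67% of all genes called higher and 0.0077% lower, counts of 0 in lists this short do not set these genes apart. With the block, edgeR also called 0 of the 11 and 0 of the 6, as did DESeq2 and limma-voom. At an unadjusted p under 0.05 edgeR had 1 higher and 1 lower of the 11, Orai1 and Orai3, and 1 lower of the 6, Atp2b1, named after their values were seen, beside 12.6% higher and 4.82% lower over all genes. Calr and Canx, the calcium-binding chaperones of the endoplasmic reticulum, were the most abundant of the 11. Calr averaged 1253 ± 202 CPM in 4n and 1235 ± 272 CPM in 2n, and Canx 1028 ± 165 CPM in 4n and 1005 ± 106 CPM in 2n.

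**Figure D5:**
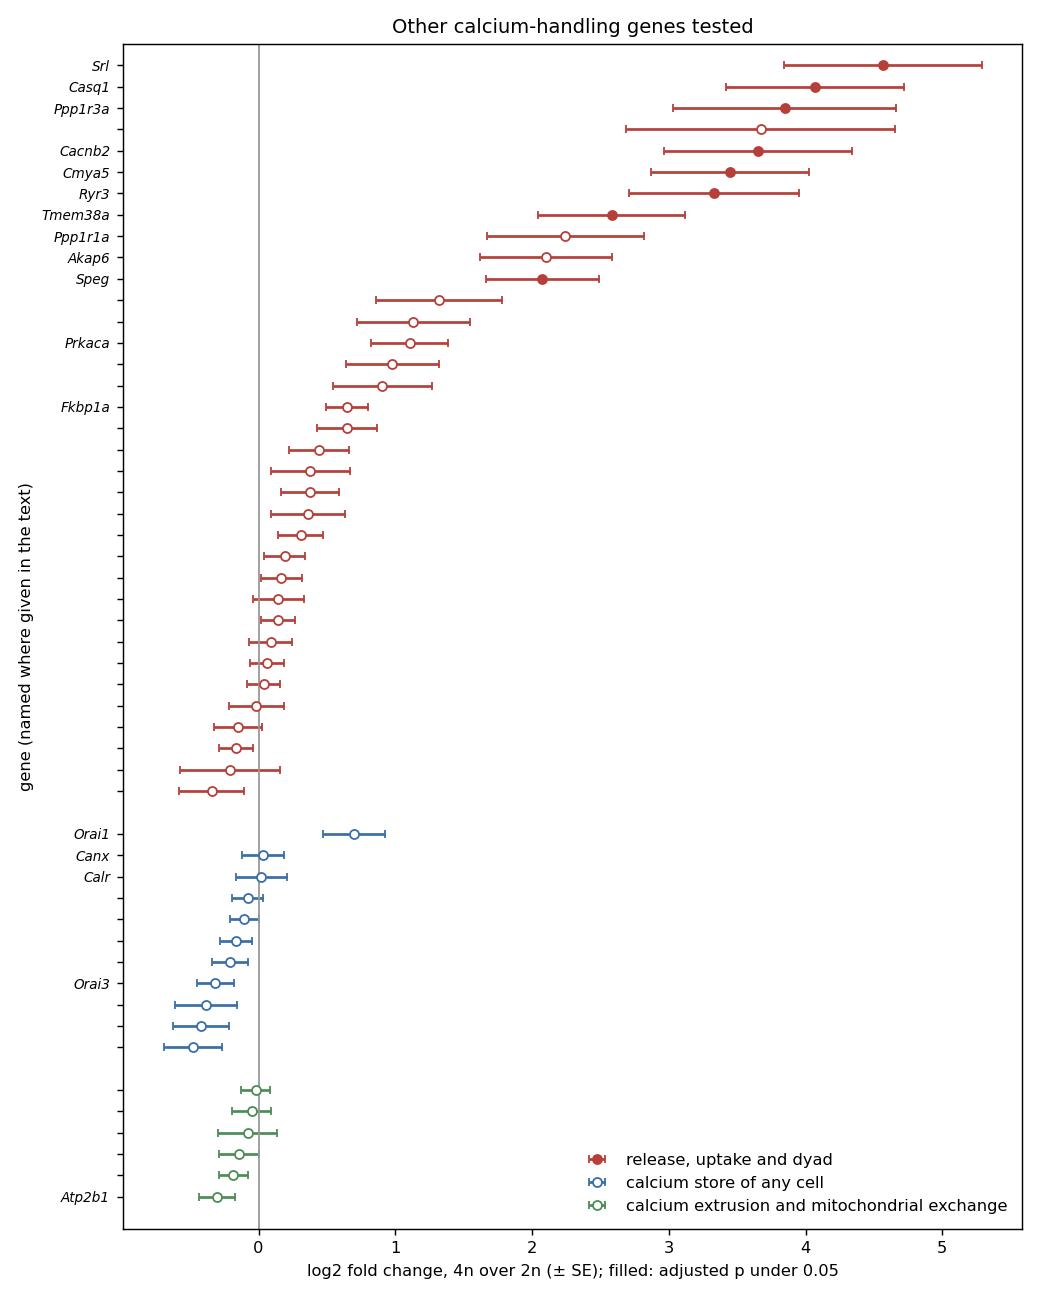
Log2 fold change of 4n over 2n with its standard error for the other calcium-handling genes tested and reported, grouped by list, with names beside those given in the text and filled points for genes past an edgeR adjusted p of 0.05. The 8 filled points, from Speg at 2.07 to Srl at 4.56, all belong to the list of release, uptake and junction genes.

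The genes most like the 9 in their pattern over the 8 libraries were Klhl31, Hspb2, Tmod1, Ank3 and Ldhb. Their log2 CPM had a Pearson correlation with the mean standardised profile of the 9 genes between 0.995 and 0.998, given as a description, since the 8 points share the split into fractions. Within the set itself each gene is part of the mean profile, which raises its correlation. Casq2 and Pln followed this profile most closely, both at 0.990, with Jph2 at 0.849 and Asph at -0.412. Hspb2, a small heat shock protein of muscle, averaged 53.0 CPM in 4n and 11.8 CPM in 2n, and Tmod1, tropomodulin of the sarcomere, 61.0 CPM in 4n and 4.63 CPM in 2n.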

How the data were processed

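Messenger RNA of 8 libraries, 4 of 4n and 4 of 2n cells, was analysed. The submitters' processing notes list HISAT2 2.0.4 and Rnor_6.0, a Rattus norvegicus build, whereas Rattus rattus is the labelled organism. How reads were counted, and with which strand setting, is not given in the sources used here. All deposited counts are whole numbers per gene, not normalized, and the deposited FPKM values are these counts over a gene length and the library total.

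Groups and replicate numbers came from sample titles. A quasi-likelihood model of edgeR 4.0.16 (R 4.3.3) was fitted to the counts of all 8 libraries (filterByExpr, minimum count 10, TMM scaling, robust dispersion, group as the factor, two-sided, Benjamini-Hochberg over 12983 genes, threshold 0.05), after a check on simulated data. The simulated counts were unpaired, with the same dispersion for all genes and as many changes up as down. The check therefore does not show how the fit behaves with the pairs and spread of these data. Standard errors are the fold change divided by the root of F. CPM values use TMM-scaled library sizes and log2 CPM a prior count of 2. DESeq2 1.42.0 and limma 3.58.1 (voom, and log2(FPKM + 1)) were alternatives. Same-numbered libraries deviated together (correlations 0.43, 0.58, 0.27 and 0.65 for replicates 1 to 4), and the sample descriptions of each such pair open with the same pair of numbers, shared with no other pair, so the numbers pair the samples. The labels do not say what these numbers mark. Replicates of a group differed by more than sampling noise (chi-square per degree of freedom from 36.6 to 421.7). Before TMM, 1 CPM in the shallowest library, of 14783521 counts, was 14.8 counts.

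The members, lists, tests and alternatives were chosen with earlier results of these data known. Named genes are the 10 members, every listed calcium gene past the threshold, the 4 with the smallest p and the 4 with the highest CPM among those that did not pass, and the 5 genes most correlated with the mean profile of the tested members. A result that this rule would name is not reported here. Of 3 ratios planned, only Pln to Atp2a2 could be tested. Ratios to Ryr2, and of Slc8a1 to Atp2a2, were added after seeing the data, without a test. No sequence is printed, since none was used here.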

Additional observations from a re-analysis of the deposited data

Results flagged for a closer look

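In groups of 4, chance marks about 1 in 20 as having a sample far from the others, and the values here are given without an explanation. Among 4n libraries, replicate 3 stood apart for Srl at 549 CPM and for Cmya5 at 21.6 CPM, and for the summed skeletal muscle markers at 111 CPM, which came from Ckm, also a heart gene. Replicate 4 stood apart among 4n libraries for the summed endothelial markers at 439 CPM and for the log2 ratio of Slc8a1 to Atp2a2 at -1.75, although the other 4n libraries differed little in that ratio. Among 2n libraries, replicate 3 stood apart for Ppp1r1a at 0.583 CPM, and replicate 1 for the log2 level of Hrc relative to the cardiomyocyte markers at -10.4.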

How the results depend on the processing

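The direction of all 9 tested calcium genes was the same under each of the 20 alternatives tried for them, while their side of the threshold was not. Over all genes, 347 were called higher and 1 lower. DESeq2 called 931 and 82, limma on log2(FPKM + 1) 186 and 8, and the replicate block 554 and 79. Total count scaling called 12 lower and leaving out the mitochondrial genes 2. No gene passed in limma-voom (0 and 0), though 1460 higher and 694 lower genes had an unadjusted p below 0.05. Leaving out 1 library gave from 0 to 870 higher and from 0 to 90 lower, with at least 1228 higher at an unadjusted p under 0.05, and the replicate block without 1 pair gave from 0 to 1254 and from 0 to 399 (558 and 50 without the pair of replicate 3). Of the calcium genes, 5 were called higher. DESeq2 called 8, Sln, Atp2a2 and Jph2 among them, and limma-voom 0, with edgeR calling from 0 to 7 without 1 library and from 0 to 8 with the replicate block and without 1 pair. Total count scaling and FPKM moved the median log2 fold change of all genes to -0.25 and -0.20, from -0.01. On log2(FPKM + 1) values, which understate low genes, Ryr2, Hrc and Trdn had 2.25, 1.93 and 1.67. The difference in the log2 ratio of Pln to Atp2a2 was 2.62 with p = 0.125 by exact sign flips within pairs (replicate block), and from 2.26 to 2.82 without 1 library, where the exact permutation test gave 0.0571, the smallest it then allows. Sln, with 67 counts or fewer in each library, was limited by depth.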
